A study of Mus musculus with 38 samples.

Results

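The clustered protocadherins are described here across 5 bulk RNA-seq experiments on the loss of Trim28 and across the cell types of single nuclei from mouse cortex. Members were chosen by name alone, as every gene whose symbol starts with Pcdha, Pcdhb or Pcdhg, which gave 58 of the 55298 genes in the bulk count table. The alpha cluster holds 14 members, the beta cluster 22 and the gamma cluster 22, and 5 of them (Pcdhac1, Pcdhac2, Pcdhgc3, Pcdhgc4 and Pcdhgc5) are of the C-type. All 58 lie on the forward strand of chromosome 18 of GRCm38, the alpha cluster from 36930184 to 37187661, the beta cluster from 37264938 to 37524479 and the gamma cluster from 37661793 to 37841873.

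Clustered protocadherins are cadherin-like adhesion proteins of the neuronal surface that pair with identical isoforms on a facing membrane, and they are known for self-avoidance between the branches of one neuron, for synapse formation and for neuronal survival. Each alpha and gamma gene has its own promoter and a large variable exon that encodes the extracellular part, the transmembrane stretch and some of the cytoplasmic tail, and it is spliced to constant exons that all members of its cluster use, whereas each beta gene is a single coding exon with no constant part. In most neurons the alpha, beta, gamma-A and gamma-B promoters are chosen stochastically, through DNA methylation, the insulator protein CTCF and cohesin, while most C-type promoters are used more constitutively.

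The study removed Trim28, a corepressor that recruits histone H3 lysine 9 methylation to transposable elements (TEs), from neural progenitor cells (NPCs) and from neurons or cortex of mice. NPCs came from the forebrain of Cas9-GFP knock-in embryos at E13.5 and received lentiviral gRNAs with a nuclear RFP reporter, and RFP-positive cells were sorted after 10 days: 6 Trim28-KO cultures (guides g3, g4 and g13 against exons 3, 4 and 13, 2 cultures each) and 2 cultures with a lacZ guide. In adult Cas9-GFP mice (Cas9 in all cells) and Stop-Cas9-GFP mice (Cas9 only after Cre, here given by AAV under the neuronal Synapsin promoter), AAV with g3, g4, g13 or all 3 guides was injected into the striatum, and RFP-positive nuclei were sorted after 8 weeks (4 Trim28-KO animals and 1 lacZ animal in each line). Adult Trim28-flox mice, described in the study as (+/-) and (+/+), received AAV vectors for Cre and for nuclear GFP, both driven by the Synapsin promoter, in the forebrain. Their GFP-positive nuclei were sorted after 8 weeks and sequenced from 4 animals labelled KO and 4 labelled control, and which genotype or vector each arm had is not given in the labels. In the Emx1-Cre experiment all animals carried Emx1-Cre(+/-), and KO animals with Trim28-fl(+/+) were compared with controls with Trim28-fl(+/-), so that 1 allele was also excised in the controls; cortex was taken at 3 months from 3 KO and 3 control animals, and single nuclei from 2 KO and 2 control animals whose numbers are among those of the bulk libraries. Emx1-Cre acts during cortical development in the lineage of excitatory neurons, astrocytes and oligodendrocytes but not in that of interneurons or microglia, so Trim28 remains in part of the cells.

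The libraries held 8790346 to 25345083 gene counts, of which 2512 to 18074 per library fell on the clustered protocadherins. KO animal 76 of the Emx1-Cre cross stood apart in its scaling: its 16748967 gene counts had a normalized library size of 12619074, while that of each other cortex library was above its count, and results without this animal are given with the cortex values. The defining markers fitted the labels: in NPCs the 6 progenitor markers (Sox2, Nes, Pax6, Vim, Fabp7 and Mki67) summed to 3421 to 7057 counts per 1000000 (CPM), and in the sorted striatal nuclei the 3 striatal neuron markers (Drd1, Drd2 and Ppp1r1b) summed to 998.6 CPM or more. Trim28 itself was lower in Trim28-KO NPCs (51.3 ± 14.5 CPM, SD, n = 6, against 181 ± 33.4, n = 2; log2 fold change -1.82, SE 0.25, edgeR quasi-likelihood adjusted p = 0.031) and in Emx1-Cre cortex (7.83 ± 1.52 against 20.4 ± 1.28 CPM, n = 3 each; -1.39, SE 0.15, adjusted p = 0.000378). The NPC call was lost without each of 6 libraries (the g3 culture with the higher number, both g4 cultures, the g13 culture with the lower number and either lacZ culture), with adjusted p up to 0.414. Trim28 was not called in Cas9-GFP nuclei (100 ± 5.25 CPM, n = 4, against 143 in the lacZ animal, edgeR adjusted p = 0.415) or in Stop-Cas9-GFP nuclei (105 ± 15.8 against 105). In the Trim28-flox nuclei it went against the labels: the libraries labelled KO held 136 ± 7.41 CPM and those labelled control 28.4 ± 2.46 (n = 4 each; 2.26, SE 0.10, edgeR adjusted p = 2.74e-06). Those libraries are called "labelled KO" and "labelled control" throughout, and directions drawn from them follow the labels. Nothing in the labels says that the NPC cultures were prepared separately, so p-values there measure only the spread between these samples.

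Because alpha and gamma members end in shared constant exons and the authors counted only reads assigned to 1 gene, a member's count comes from the exon bases that no other member covers. The median unshared length was 2479.5 bases in the alpha, 3714 in the beta and 2629.5 in the gamma cluster, and levels are compared between members only as CPM per kb of this length. Pcdhb21 and Pcdhb22 overlap each other, so reads in their common stretch are missing from both. In the lacZ NPC cultures the C-type member Pcdhgc3 dominated, at a mean level of 105.8 CPM per kb, followed by Pcdhb18 at 6.11 and Pcdhb20 at 5.79. The alpha cluster was nearly silent in these progenitors, with a median level of 0.0568 CPM per kb, and 1 of its 14 members reached 1 CPM. In control cortex of the Emx1-Cre cross the highest levels were those of Pcdhgc5 at 13.1, Pcdhb9 at 6.55 and Pcdhac2 at 5.62 CPM per kb, 10 of 14 alpha members reached 1 CPM, and the alpha median was 0.617 CPM per kb.

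The same C-type members led in the striatal nuclei of the lacZ animals. Pcdhgc5 stood at 14.2 CPM per kb in the Cas9-GFP line, ahead of Pcdhac2 at 10.6 and Pcdhga7 at 8.08. In the Stop-Cas9-GFP line Pcdhgc5 stood at 17.6 CPM per kb, ahead of Pcdhga6 at 8.73 and Pcdhac2 at 8.46. In the Trim28-flox nuclei labelled control the order differed, with Pcdhga12 at 4.27 CPM per kb, Pcdhb20 at 3.18 and Pcdhb17 at 3.13, and in those labelled KO, where Trim28 was higher, Pcdhb20 stood at 3.12, Pcdhb15 at 2.38 and Pcdhga12 at 2.32. Pcdhgc3, the leading member in NPCs, was at 0.988, 0.534 and 0.153 CPM per kb in the nuclei of the Cas9-GFP lacZ animal, of the Stop-Cas9-GFP lacZ animal and of the Trim28-flox animals labelled control. These levels come from different tissues and preparations and were not tested against each other.

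**Figure D1:**
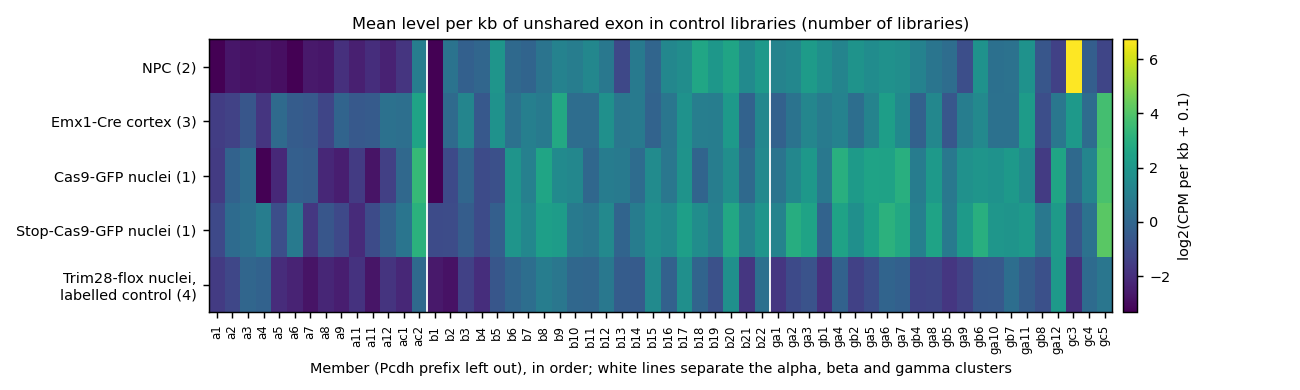
Mean level of each member in the control libraries of the 5 experiments (rows, with the number of libraries; for Trim28-flox, those labelled control, in which Trim28 was the lower), as log2 of CPM per kb of unshared exon plus 0.1 (colour), in order along the alpha, beta and gamma clusters (columns). Pcdhgc3 stands out in NPCs at 105.8 CPM per kb and Pcdhgc5 in cortex at 13.1, and the alpha members are dark in NPCs.

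In Emx1-Cre cortex many clustered protocadherins were more abundant after Trim28 was deleted, most of all in the beta cluster and in the first part of the gamma cluster. Of 58 members, 56 passed the filter on low counts, and 20 of them were called higher (a log2 fold change over 0.5 at an edgeR adjusted p under 0.05), against 0.860% of all 16271 genes tested. A further 2 members were called lower, against 0.467% of all genes. The median log2 fold change was 0.46 over the tested members and 0.007 over all tested genes. In 29 members every KO animal lay above every control animal, against 6.81% of all genes, and in 6 every KO animal lay below, against 7.10%. At an unadjusted edgeR p under 0.05 there were 31 higher and 7 lower members, against 4.57% of all genes in each direction. The calls fell unevenly on the clusters: 3 of 13 tested alpha members were called higher and 1 lower, 8 of 21 beta members higher and 0 lower, and 9 of 22 gamma members higher and 1 lower. By cluster the median log2 fold change was -0.39 for alpha, 0.65 for beta and 0.37 for gamma.

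**Figure D2:**
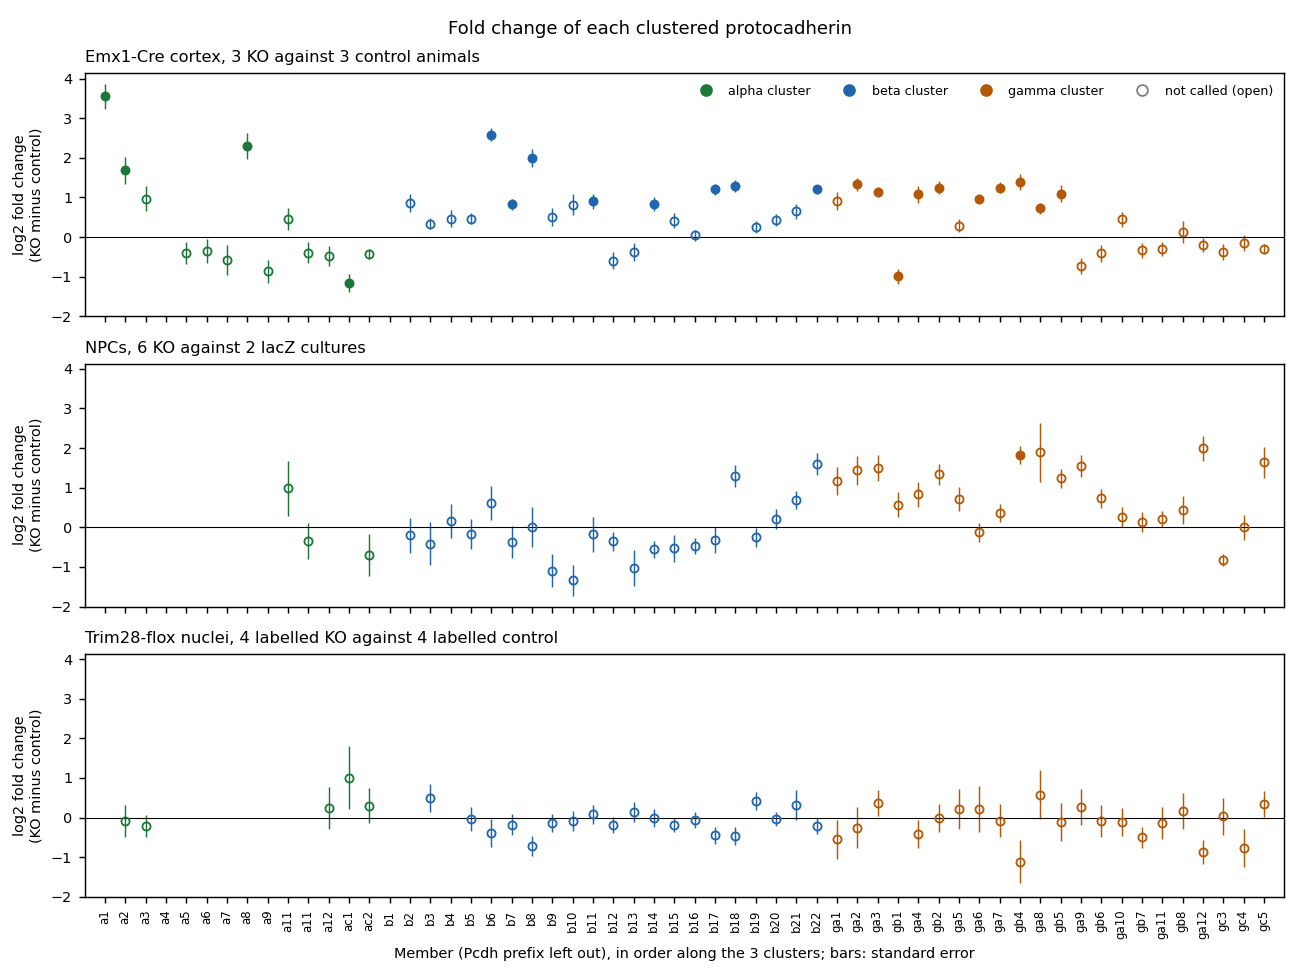
Log2 fold change (KO minus control, vertical axis, bars: standard error) of each tested member in order along the clusters in Emx1-Cre cortex, NPCs and Trim28-flox nuclei, with filled points for called members and open points for the others. In cortex the 22 called members include Pcdha1 at 3.55 and 9 members of the first part of the gamma cluster, in NPCs Pcdhgb4 is the 1 filled point, and the Trim28-flox panel has none.

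Pcdha1, the first gene of the alpha cluster, changed most. It stood at 8.41, 7.44 and 8.00 CPM in the KO animals numbered 60, 73 and 76 and at 1.16, 0.435 and 0.311 CPM in the control animals numbered 64, 65 and 77, so the groups were far apart (log2 fold change 3.55, SE 0.31, edgeR adjusted p = 5.41e-05), a fold of 11.7. Pcdha8 stood at 5.11, 3.41 and 3.25 CPM in the KO and at 0.980, 1.09 and 0.356 in the control animals (2.29, SE 0.32, edgeR adjusted p = 0.00268). Pcdha2, the immediate neighbour of Pcdha1, stood at 3.41, 1.65 and 1.98 against 0.835, 0.870 and 0.489 CPM (1.68, SE 0.34, edgeR adjusted p = 0.0276), and its call was lost without KO animal 60 or without any of the controls. The rest of the alpha cluster did not share this direction: 8 of 13 tested alpha members had negative fold changes, and Pcdhac1 was called lower.

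In the beta cluster, whose genes have no constant part, 19 of 21 tested members had positive fold changes and 15 had every KO animal above every control animal. Pcdhb6 was at 34.3, 25.6 and 23.1 CPM in the KO animals and at 4.75, 4.08 and 5.02 in the controls (2.58, SE 0.17, edgeR adjusted p = 3.47e-06), a fold of 5.98. Pcdhb8 was at 31.1, 21.1 and 17.0 against 5.05, 5.11 and 7.33 CPM (1.99, SE 0.22, edgeR adjusted p = 0.00046), and Pcdhb18 at 27.2, 20.1 and 21.9 against 9.62, 7.56 and 11.1 CPM (1.29, SE 0.16, edgeR adjusted p = 0.00101). In these beta members KO animal 60 held the highest value. The other members called higher, Pcdhb7, Pcdhb11, Pcdhb14, Pcdhb17 and Pcdhb22, changed by log2 fold changes of 0.82 to 1.20.

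In the gamma cluster the members called higher were all among the first 12 genes, from Pcdhga1 to Pcdhgb5, where 9 were called higher and 1 lower with a median log2 fold change of 1.08. Of the last 10, from Pcdhga9 to Pcdhgc5, 0 were called and the median was -0.31. This split was chosen after the values were seen and is given as a description. Pcdhgb4 was at 8.98, 6.41 and 6.26 CPM in the KO animals and at 2.32, 2.99 and 3.02 in the controls (1.39, SE 0.19, edgeR adjusted p = 0.00239). Pcdhga2 was at 9.49, 8.06 and 7.77 against 2.90, 3.64 and 3.60 CPM (1.33, SE 0.16, edgeR adjusted p = 0.000934), and Pcdhgb2 at 7.16, 7.29 and 7.93 against 3.38, 3.54 and 2.49 CPM (1.25, SE 0.17, edgeR adjusted p = 0.00213). In all 3 the groups did not overlap. The others called higher, Pcdhga3, Pcdhga4, Pcdhga6, Pcdhga7, Pcdhga8 and Pcdhgb5, had log2 fold changes of 0.73 to 1.24. Pcdhgb1, which lies between Pcdhga3 and Pcdhga4, went the other way, at 2.44, 1.96 and 2.38 CPM in the KO animals against 5.08, 4.08 and 4.18 in the controls (-0.99, SE 0.19, edgeR adjusted p = 0.0193).

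**Figure D3:**
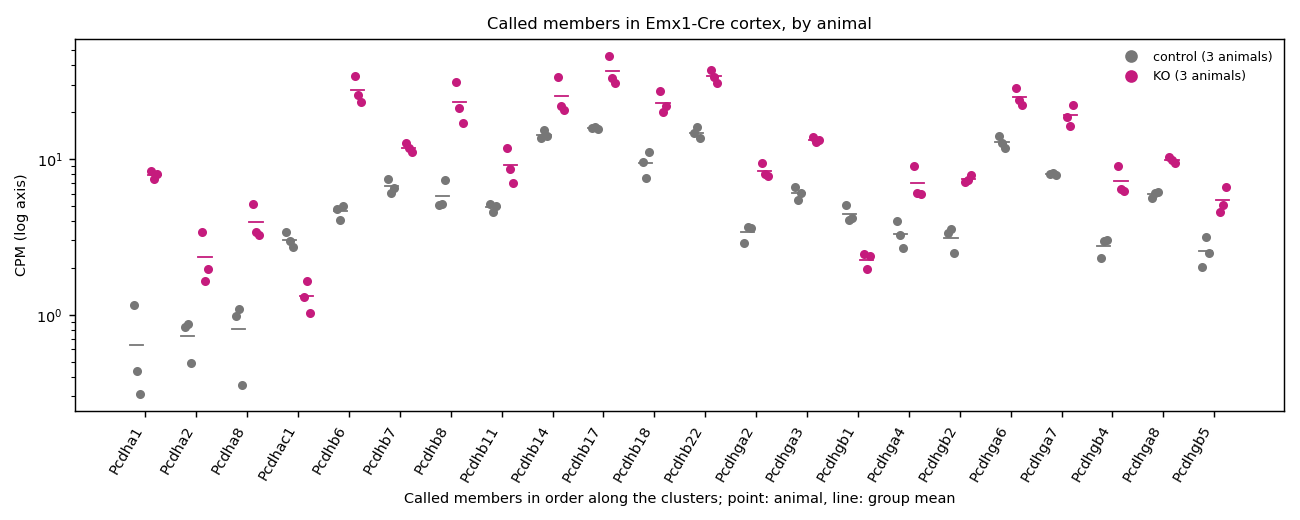
CPM (log axis) of the 22 members called in Emx1-Cre cortex in each of the 3 KO (pink) and 3 control animals (grey), with a line at each group mean, in order along the clusters. The 3 KO animals lie above the 3 controls in 20 members and below them in Pcdhac1 and Pcdhgb1.

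The C-type members are used more evenly from neuron to neuron. All 5 had negative fold changes in the KO cortex, and 1 of them, Pcdhac1, was called. Pcdhac1 was at 1.31, 1.65 and 1.03 CPM in the KO animals and at 3.41, 2.99 and 2.71 in the controls (-1.16, SE 0.23, edgeR adjusted p = 0.0236). Pcdhac2 was at 13.5, 11.0 and 13.5 against 19.1, 16.5 and 15.5 CPM (-0.43, SE 0.13, edgeR adjusted p = 0.221), without overlap but short of the threshold. Pcdhgc5, the most abundant member per kb in this tissue, was at 47.8, 48.1 and 49.9 against 70.7, 61.3 and 48.5 CPM, so that control animal 77 lay within the KO range (-0.31, SE 0.12, edgeR adjusted p = 0.430). Pcdhgc3, at 7.56, 10.0 and 15.2 against 13.1, 13.2 and 15.8 CPM, and Pcdhgc4, at 3.13, 3.31 and 3.88 against 4.65, 3.05 and 3.51 CPM, overlapped between the groups (edgeR adjusted p = 0.701 and 0.976). Without KO animal 76, Pcdhgc3 was called lower (-0.67, edgeR adjusted p = 0.0221).

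Summed over the clusters, the beta members took 399.5, 293.1 and 272 CPM in the KO animals and 183.9, 182.1 and 177 CPM in the controls, 1.78 times as much and 1.91 times without KO animal 76. The gamma sum was 219.4, 198.4 and 216.9 against 189.6, 183.9 and 158.3 CPM (a ratio of 1.19, of 1.18 without KO animal 76 and of 1.05 with plain library sizes), and without the C-type members it was 1.50 times as high in the KO animals. The alpha sum overlapped between the groups, with a ratio of 1.11, and without its C-type members the ratio was 1.56. The C-type sum was 73.31, 74.13 and 83.52 CPM in the KO animals and 110.9, 97.07 and 85.96 in the controls, a ratio of 0.786. Sums over members are given as values, without a test.

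The 2 calls of lower members and several of the smaller calls rested on single animals. Without control animal 77, 13 members were called higher in place of 20, and across the animals left out in turn the number was 13 to 23. Without KO animal 76, 23 members were called higher and 3 lower, and these held all 22 of the first fit. Pcdhac1 lost its call without KO animal 60 or any control, and Pcdhgb1 without KO animal 73 or any control. The 13 members that were called without control animal 77 were also called without each of the others, among them Pcdha1, Pcdha8, Pcdhb6, Pcdhb8, Pcdhb18, Pcdhga2, Pcdhgb2 and Pcdhgb4. With the TEtranscripts counts Pcdha2, Pcdhgb1, Pcdhga4 and Pcdhgb2 were not called. The share of all genes called in these other fits is not given, so their counts have no background.

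Some sums of cell type markers did not overlap between the genotypes in these cortices. Such separation of 3 from 3 animals was also seen in 6.81% of all tested genes upward and 7.10% downward. Of the inhibitory neuron, endothelial and oligodendrocyte markers, 0 were called. The 7 inhibitory neuron markers summed to 709.2 to 792.9 CPM in the KO and to 801 to 856.9 in the control animals. The 3 endothelial markers summed to 83.6 to 104 against 107 to 119 CPM, and the 3 fibroblast markers to 7.05 to 12.3 against 14.9 to 18.7. The oligodendrocyte markers Mbp, Mog, Mag and Mobp summed to 853 to 1040 CPM in the KO and to 1049 to 1200 in the control animals. Of the 6 progenitor markers, whose sum was 116 to 145 against 91.5 to 98.8 CPM, Fabp7 was called higher (48.3 ± 9.77 against 23.8 ± 1.31 CPM, n = 3 each, edgeR adjusted p = 0.0019), and among all lists of markers the other call was Col1a2, which was lower. The sums of the 7 excitatory neuron markers (824.9 to 875.4 CPM in the controls), of the astrocyte and of the microglia markers overlapped. Their part in the protocadherin values was not tested, and in bulk tissue fewer cells of a type and less RNA per cell cannot be told apart.

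Few genes around and upstream of the clusters were called. A list of architecture and silencing factors known to act on the locus held 29 symbols, such as CTCF, the cohesin subunits, Smchd1 and DNA methyltransferases. In it Znf143 and Zfp143 name the same gene. In Emx1-Cre cortex 26 were tested and 1 was called, against 0.860% of all genes called higher and 0.467% lower. It was Pds5b, which encodes a regulator of cohesin release and was lower (89.6 ± 7.66 against 129 ± 1.73 CPM, n = 3 each, log2 fold change -0.53, SE 0.09, edgeR adjusted p = 0.0115). Smchd1, a chromatin protein that silences clustered protocadherins, stood at 38.4 ± 5.39 CPM in the KO and 38.6 ± 0.573 in the control animals and was called in 0 of the 5 experiments. Of 20 signalling partners, 11 tested protocadherins outside the clusters (such as Pcdh9 and Pcdh19) and 14 tested genes that flank or interrupt the clusters (such as Taf7, Hdac3 and Diaph1), 0 were called in the cortex. At the shares of all genes given above, lists this short can hold no call, so the 0 does not set these genes apart. Within the locus, the forward-strand transcript 3222401L13Rik, just upstream of Pcdhga1, was higher, at a mean of 7.88 against 1.52 CPM (2.37, SE 0.21, edgeR adjusted p = 5.41e-05); it was named after its values were seen.

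The locus from the start of the alpha to the end of the gamma cluster, with the stretches between the clusters, holds 1076 annotated individual TEs, and 22 of them passed the filter on low counts in Emx1-Cre cortex. Of these, 9 were called higher, against 2.48% of all 13997 TEs tested. For 5 of the 9, reads cannot be told apart from those of a member, because the TE overlaps an exon of a clustered protocadherin; an L1Md_F2 fragment at chr18:37523403-37523675, which overlaps the end of the beta cluster, was at 6.03 ± 0.528 against 2.12 ± 0.248 CPM (n = 3 each; 1.52, SE 0.19, edgeR adjusted p = 8.31e-07). In NPCs 2 of 33 tested TEs in the locus were called higher, against 0.550% of all TEs, both overlapping an exon of a member of the beta cluster, and 0 of 105, 0 of 129 and 0 of 36 were called in Cas9-GFP, Stop-Cas9-GFP and Trim28-flox nuclei, where 0.163%, 0.0118% and 0% of all TEs were called higher and 0.00379%, 0.000908% and 0.00644% lower.

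In NPCs, where Trim28 was removed by CRISPR in cultured progenitors, the direction split between the C-type member that dominates there and the other gamma genes. Of 46 members tested, Pcdhgb4 was called higher (1 member, against 0.176% of all 16469 genes) and 0 were called lower (against 0.0182%), while at an unadjusted edgeR p under 0.05 there were 16 higher and 6 lower members (against 2.74% and 1.83%). The same numbers, 16 and 6, had all KO cultures above or all below both lacZ cultures, against 3.83% and 3.02% of all genes. Pcdhgb4 ranged from 20.8 over a median of 26.7 to 33.3 CPM in the 6 Trim28-KO cultures and was at 6.87 and 7.95 in the lacZ cultures (1.83, SE 0.23, edgeR adjusted p = 0.0187), a fold of 3.55. Its ratio to lacZ was 3.99 with g3, 3.34 with g4 and 3.32 with g13, so each guide gave the same direction. Its call was lost without the g3 culture with the higher number, the g4 or the g13 culture with the lower number or either lacZ culture, with adjusted p up to 0.354 and log2 fold changes of 1.72 to 1.93. The neural progenitor markers overlapped between the groups. The 4 oligodendrocyte progenitor markers summed to 343 to 476 CPM in the KO and 529 to 644 in the lacZ cultures. Among the fixed gene lists the 1 call in NPCs was Pvalb, an inhibitory neuron marker, which was higher. The part of these markers in the protocadherin values was not tested.

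The cultures carry numbers in 2 series, each with 1 lacZ culture and 1 culture per guide, and cultures of a series deviated together, so the fit with the series as a block is given beside the first. With this replicate block 11 members were called higher, against 0.565% of all genes, and 1 lower, against 0.261%. Of the 11, 9 were gamma members (Pcdhga1, Pcdhga2, Pcdhga3, Pcdhgb2, Pcdhgb4, Pcdhga8, Pcdhga9, Pcdhga12 and Pcdhgc5) and 2 beta members (Pcdhb18 and Pcdhb22). Pcdhb22 ranged from 55.9 over a median of 75.2 to 108 CPM in the KO cultures and was at 22.6 and 27.7 in the lacZ cultures (1.58 with the block, SE 0.19, edgeR adjusted p = 0.0097, and 0.0785 without the block). Pcdhga12 ranged from 3.65 over 5.06 to 6.73 CPM and was at 1.09 and 1.50 in lacZ (2.00, SE 0.28, edgeR adjusted p = 0.0154 with and 0.0509 without the block). Both stood higher in all 6 KO cultures than in both controls.

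Pcdhgc3, the most abundant member in NPCs, was the 1 called lower with the block. It ranged from 169 over a median of 198 to 234 CPM in the Trim28-KO cultures and was at 351 and 364 in the lacZ cultures (-0.83, SE 0.12, edgeR adjusted p = 0.0198 with and 0.0967 without the block). Its ratio to lacZ was 0.542, 0.563 and 0.594 with g3, g4 and g13. A gene on the opposite strand that overlaps it, BC037039, stood at 158.5 against 274.8 CPM (-0.79, edgeR adjusted p = 0.138). The other gamma C-type member with a call, Pcdhgc5, ranged from 3.13 over 4.42 to 7.01 CPM against 1.40 and 1.64 in lacZ (1.598, SE 0.27, edgeR adjusted p = 0.030 with and 0.298 without the block). Pcdhgc4 overlapped between the groups (1.28 to 2.88 against 2.34 and 2.47 CPM), as did Pcdhac2 (0.908 to 5.28 against 3.87 and 7.07 CPM), and Pcdhac1, at under 0.5 CPM in every culture, was not tested.

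Summed over all 22 members, the gamma cluster had a ratio of 0.93 in NPCs, with opposite directions within it. The 19 gamma members that are not C-type summed to 233.9 ± 51.9 CPM in the KO (n = 6) and to 115.4 ± 20.9 in the lacZ cultures (n = 2), a ratio of 2.03, whereas the C-type members summed to 213.3 ± 25.5 against 367.5 ± 6.5 CPM, a ratio of 0.58. The beta sum had a ratio of 1.36, and by guide 1.63, 1.18 and 1.27 for g3, g4 and g13. The median log2 fold change was 0.78 over 22 gamma members and -0.26 over 21 beta members.

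**Figure D4:**
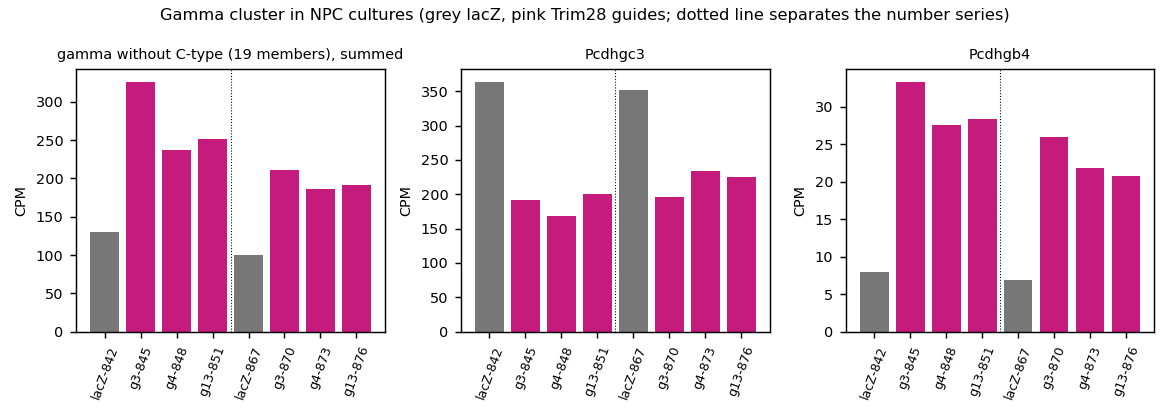
CPM in each NPC culture (lacZ grey, Trim28 guides pink; a dotted line separates the number series) of the 19 gamma members that are not C-type, summed, and of Pcdhgc3 and Pcdhgb4. Every KO culture lies above both lacZ cultures for the sum and for Pcdhgb4 (20.8 CPM or more against 7.95 or less) and below both for Pcdhgc3 (234 CPM or less against 351 or more).

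Set beside the cortex, 7 members were called higher both in Emx1-Cre cortex and, with the block, in NPCs: Pcdhb18, Pcdhb22, Pcdhga2, Pcdhga3, Pcdhgb2, Pcdhgb4 and Pcdhga8. They made up 63.6% of the 11 called in NPCs, while of all 56 members tested in cortex 20 were called higher there. Whether the overlap is larger than these shares would give was not tested. With the first NPC fit, without the block, Pcdhgb4 was the 1 shared member. Across the 46 members tested in both, fold changes had a Spearman correlation of 0.28 and the same sign in 26; the points share libraries within each experiment, and this is a description. A direct test of the difference of the KO effect (edgeR interaction term, cortex minus NPCs) called 0 members higher, against 0.0374% of all genes, and 2 lower, against 0.0748%: Pcdhga9 (-2.32, SE 0.33, adjusted p = 0.0164) and Pcdhga12 (-2.24, SE 0.35, adjusted p = 0.0218). Pcdhga9 ranged from 3.68 to 5.34 CPM in the KO NPCs against 1.45 and 1.59 in lacZ, and from 3.62 to 3.92 CPM in the KO cortices against 4.97 to 8.16 in the controls. With DESeq2 the same contrast called 2 members higher and 3 lower, for which the share of all genes was not taken.

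In the adult striatal nuclei edited by CRISPR, and in the Trim28-flox nuclei, 0 clustered protocadherins were called. In Cas9-GFP nuclei, with 1 lacZ animal, 0 of 56 tested members and 0% of all 19004 genes were called by edgeR, and 4 members were higher and 1 lower at an unadjusted p under 0.05, against 5.39% and 2.82% of all genes. In Stop-Cas9-GFP nuclei, also with 1 lacZ animal, 0 of 58 members and 0% of all 18777 genes were called, and 2 were higher and 0 lower at an unadjusted p under 0.05, against 1.91% and 0.538%. In Trim28-flox nuclei 0 of 45 tested members were called, against 0.0117% of genes higher and 0.0292% lower, and 0 were higher and 2 lower at an unadjusted p under 0.05, against 2.54% and 2.19%. DESeq2 called 0 members in each of the 3 experiments as well.

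Among the C-type members in Cas9-GFP nuclei, Pcdhgc5 was at 57.5 ± 7.53 CPM in the KO (n = 4) against 65.5 in the lacZ animal, Pcdhac2 at 26.4 ± 6.06 against 32.2, Pcdhac1 at 1.27 ± 0.428 against 2.45, Pcdhgc3 at 3.40 ± 0.643 against 3.34 and Pcdhgc4 at 4.89 ± 2.00 against 7.86. In Stop-Cas9-GFP nuclei Pcdhgc5 was at 94.7 ± 26.6 against 81.1 CPM, Pcdhac2 at 34.7 ± 8.51 against 25.6, Pcdhac1 at 2.62 ± 1.83 against 3.61, Pcdhgc3 at 3.82 ± 2.07 against 1.81 and Pcdhgc4 at 5.86 ± 2.37 against 4.52. In the Trim28-flox nuclei labelled KO and labelled control (n = 4 each) the values were 8.52 ± 3.50 against 6.71 ± 1.08 CPM for Pcdhgc5, 3.69 ± 1.74 against 2.98 ± 1.10 for Pcdhac2, 0.641 ± 0.428 against 0.304 ± 0.228 for Pcdhac1, 0.534 ± 0.271 against 0.517 ± 0.126 for Pcdhgc3 and 2.14 ± 0.437 against 3.65 ± 3.25 for Pcdhgc4. None of these 15 differences passed the test. In the Trim28-flox nuclei a single labelled KO library, at 3.28 CPM, set the spread of Pcdhgc5. The other labelled KO libraries were at 10.0 to 10.7 CPM and those labelled control at 5.28 to 7.87.

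The difference of the effect between Emx1-Cre cortex and Trim28-flox nuclei was tested directly, by the labels as given. The edgeR interaction term called 6 members higher in cortex, against 0.236% of all genes, and 0 lower, against 0.0787%. They were Pcdha1 (4.28, SE 0.60, adjusted p = 0.0027), Pcdhb6 (2.93, SE 0.42, adjusted p = 0.00296), Pcdhb8 (2.65, SE 0.37, adjusted p = 0.0027), Pcdhb18 (1.71, SE 0.28, adjusted p = 0.010), Pcdhb17 (1.596, SE 0.29, adjusted p = 0.0177) and Pcdhb22 (1.36, SE 0.23, adjusted p = 0.0112). In the Trim28-flox nuclei Pcdhb6 was at 1.11 to 3.52 CPM in the libraries labelled KO and at 2.82 to 4.43 in those labelled control, and Pcdha1 at 0.222 to 0.481 against 0.397 to 0.894 CPM, with overlap in both. Pcdha1 did not pass the filter on low counts in the Trim28-flox nuclei alone. It was kept only in the joint fit with the cortex libraries, where the KO animals held 7.44 to 8.41 CPM. Its call thus leans on the group in which it is high, and the Trim28-flox side rests on few counts. Pcdha1 is listed with its value and is not taken as support for a difference. Because Trim28 goes against the labels there, the contrast was also taken with the sign of the Trim28-flox effect turned, an alternative chosen after seeing the data. It called 0 members in either direction by edgeR, against 0.0210% of all genes higher and 0.0157% lower, so that all 6 edgeR calls depend on the labels being as given. DESeq2 called 4 members higher and 0 lower in the turned contrast, and 8 higher and 0 lower as labelled. The share of all genes called by DESeq2 was not taken, so these counts cannot be set against a background. The turned difference was 2.77 (SE 0.61, edgeR adjusted p = 0.223) for Pcdha1 and 2.12 (SE 0.42, edgeR adjusted p = 0.137) for Pcdhb6. For Pcdhb8, Pcdhb17, Pcdhb18 and Pcdhb22 it was 0.697 to 1.22, with edgeR adjusted p of 0.400 to 0.999999. Cre timing, tissue and preparation also differ between the experiments and cannot be told apart from the effect of the labels.

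In the single nuclei of the Emx1-Cre cross, 13671 nuclei were kept, 3065 to 3609 per animal, with a median of 8088 to 8839.5 unique molecular identifiers (UMIs) per nucleus. Clusters were named from fixed markers, and 2 small clusters stayed unnamed. Pairs of animals shared 0 to 5 barcodes, and 0 members were among the 2000 variable genes used for clustering. Of the 58 members, Pcdha1 was the only one with any UMI, 1080 in all, and 57 were listed at 0. The pre-mRNA count covers whole gene bodies, and of 57 members with a known span, 56 lie wholly within other genes of the table on the same strand, so that their reads could not be assigned to 1 gene. Pcdha1 alone has a stretch of its own, the 9021 bases before the start of Pcdha2. The zeros therefore say nothing about the expression of the other members, and what follows is the signal from the start of the alpha cluster.

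In excitatory neuron-like nuclei Pcdha1 was at 1.04 and 1.09 CPM, here UMIs per 1000000 UMIs of the class and animal, in control animals 64 and 65 and at 17.9 and 18.02 in KO animals 60 and 73. These levels rest on 23, 25, 469 and 477 UMIs in 1735, 1843, 2253 and 2344 nuclei. The difference passed the test on UMIs summed per animal (log2 fold change 4.02, SE 0.18, edgeR adjusted p = 0.00101, against 4.03% of genes called higher in this class), and the ratio of the summed groups was 16.8, with an exact 95% counting interval of 12.6 to 23.0. Without control animal 65 the adjusted p was 0.0864 at a log2 fold change of 4.09. A Pcdha1 UMI was found in 1.27% and 1.03% of control and in 17.6% and 17.2% of KO nuclei of this class. After each nucleus was thinned to 2000 UMIs these shares were 0.188% and 0.210% against 3.47% and 3.51%. The largest excitatory cluster gave 0.958 and 1.08 CPM in the controls and 20.5 and 19.5 in the KO animals, and the 4 other excitatory clusters with at least 45 nuclei from each animal were also higher in both KO animals than in both controls.

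Inhibitory neuron-like nuclei, which lie outside the Emx1-Cre lineage, had Pcdha1 at 1.98 and 4.09 CPM in the controls and at 2.68 and 4.61 in the KO animals (7, 15, 11 and 20 UMIs). The groups overlapped (0.24, SE 0.49, edgeR adjusted p = 0.850; 0% of 12690 genes were called in this class), and the ratio of the summed groups was 1.20, with a counting interval of 0.674 to 2.18. The KO effect on Pcdha1 was larger in excitatory than in inhibitory neuron-like nuclei by 3.74 on the log2 scale (SE 0.52, edgeR interaction term with the animal as a block, adjusted p = 0.00169, against 0.781% of genes called higher).

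In the glial classes few Pcdha1 UMIs were counted. Oligodendrocyte-like nuclei held 0 and 0 in 569 and 343 control nuclei and 11 and 5 in 233 and 163 KO nuclei, or 21.1 and 11.5 CPM, at least 13.2-fold higher than a floor of 3 UMIs over the control animals. Oligodendrocyte progenitor-like nuclei held 0 and 0 against 4 and 6 UMIs, or 10.8 and 15.3 CPM, that is, at least 4.10-fold higher than 3 UMIs over the controls. Both were removed by the filter on low counts. Without that filter, an alternative chosen after seeing the data, the log2 fold change was 6.76 in the oligodendrocyte-like and 5.48 in the progenitor-like class. The planned fit did not test the gene in either class, so no p-value is given. The filter kept the gene in the oligodendrocyte-like class when a control animal was left out. The log2 fold change was then 6.38 without control animal 64 and 6.73 without control animal 65, each with a lone control. The 7 excitatory neuron markers were at 300 CPM in the KO oligodendrocyte-like nuclei against 1460 in KO excitatory nuclei, and Pcdha1 was at 55.9 UMIs per 1000 of these marker UMIs in the first and 12.3 in the second. The same markers were at 2884 CPM in KO astrocyte-like nuclei, above the excitatory nuclei. Their sum is therefore no measure of excitatory RNA across classes, and carry-over between nuclei was not tested.

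Astrocyte-like nuclei, which are within the Emx1-Cre lineage, had 1 and 0 Pcdha1 UMIs in the controls and 0 and 4 in the KO animals, a ratio of 3.51 with a counting interval of 0.347 to 173. Microglia-like nuclei, which are not, had a UMI in 0 of 401 control nuclei, which allows up to 3.803 CPM, and in 2 of 290 KO nuclei. In both a difference was not detectable at this depth. Trim28 in the same nuclei was at a log2 fold change of -0.30 in excitatory (edgeR adjusted p = 0.302) and -0.22 in inhibitory neuron-like nuclei (edgeR adjusted p = 0.734). The 4 animals carry the same numbers as 4 of the bulk libraries, in which Pcdha1 was also higher, so the nuclei are not independent of the bulk result.

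**Figure D5:**
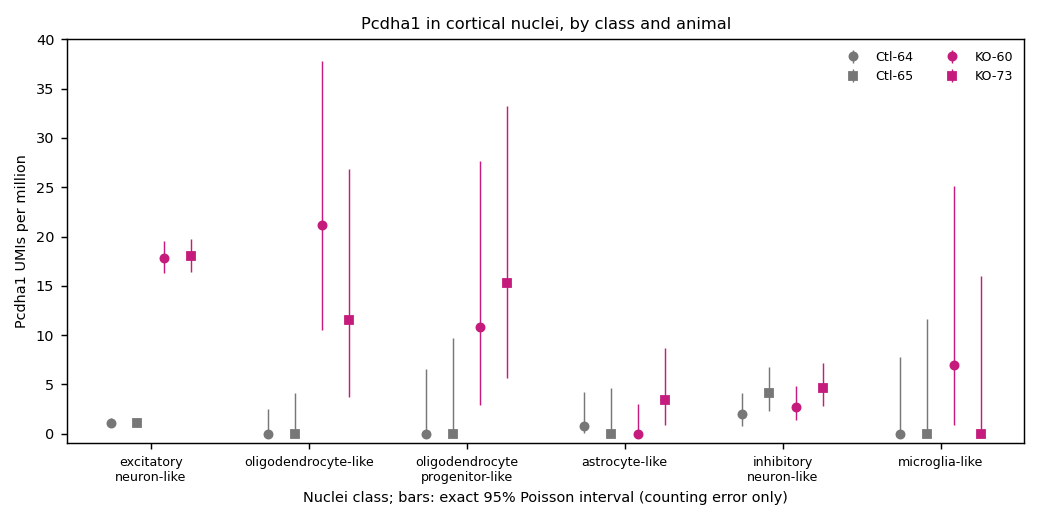
Pcdha1 UMIs per 1000000 (CPM) in each class of nuclei (horizontal axis) and animal (controls grey, KO pink), with exact 95% Poisson intervals that cover counting error only. The KO animals lie at 17.9 and 18.02 against 1.04 and 1.09 in excitatory neuron-like nuclei, while the 4 animals overlap in inhibitory neuron-like nuclei.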

How the data were processed

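Samples were grouped by their labels, which gave 32 bulk libraries in 5 experiments and 4 libraries of nuclei; the CUT&RUN samples were not used here. The members and gene lists were chosen with earlier results of these data known. Reads of 2 × 150 bases from stranded poly(A) libraries were aligned by the authors to GRCm38.p6 with STAR 2.6.0, and the authors deposited raw counts per gene and per individual TE from featureCounts (Subread 1.6.3, stranded, uniquely mapped reads). The authors also deposited TEtranscripts tables, estimated counts that divide multi-mapping reads among their matches; these were rounded and used as an alternative. For single nuclei, UMI counts made with Cell Ranger 3.0 on a pre-mRNA reference were deposited. In the TE table, 6 columns that match no sample were not used. Gene symbols came from GENCODE by identifier (54409 of 55298 genes; 54508 had a symbol), and 2 alpha genes carry the symbol Pcdha11.

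Each experiment was fitted alone in R 4.3.3 with edgeR 4.0.16 (filterByExpr, TMM, quasi-likelihood test, KO against control, no covariate) and p was adjusted over all tested genes by the Benjamini-Hochberg method. Calls needed a log2 fold change over 0.5 in size at an adjusted p under 0.05, or the p alone for differences of effects and for nuclei. A standard error is the log2 fold change divided by the square root of F, and CPM are relative to normalized library sizes. The uneven gene content of a library can move CPM, and reads shared by members are missing from the counts. In counts simulated from the fitted model, the median fitted value of the largest fold changes lay near the simulated one in the NPC, Trim28-flox and Emx1-Cre fits. Such counts check the code and cannot test the model. Libraries were drawn independently, so the shared deviation within an NPC series was not simulated. Recovery was not required of the Cas9-GFP and Stop-Cas9-GFP fits or of smaller changes. DESeq2 1.42.0, RLE and upper-quartile factors, no filter, the TEtranscripts counts and leaving out each library were the alternatives.

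NPC cultures carry numbers that fall into 2 series, each with 1 culture per guide and 1 lacZ culture. What a series stands for is not stated, but when each group's mean was removed, same-series cultures correlated over 16469 genes (r from 0.549 to 0.749 in all 6 pairs of groups), so a replicate block was fitted beside the first fit.

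Nuclei whose detected genes lay within 3 median absolute deviations of the animal's median were clustered with Seurat 5.3.0 (2000 variable genes, resolution 0.1); no doublet caller was run. UMIs were summed per animal and class for classes with at least 20 nuclei in every animal. Intervals and the floor of 3 counts cover counting error only.

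Members named with values were, by rule, the C-type members in every experiment, the 3 largest called changes in each direction per cluster and experiment, the 3 highest per length in controls, those with most UMIs in nuclei, and members called in 3 or more experiments; genes of the fixed lists were named where called, besides Trim28 and Smchd1. Others were named after their values were seen. The marker Mbp stands with Mog, Mag and Mobp for oligodendrocytes; 1 further gene of that list is not reported here.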

Additional observations from a re-analysis of the deposited data

Results flagged for a closer look

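Of 46 groups of 4 to 10 libraries checked for a sample far from the others, 4 held one, and chance gives about 1 in 20. All 4 were in the Trim28-flox nuclei. The labelled KO animal with the highest library number was low in the gamma sum, at 25.8 CPM. The other 3 labelled KO animals had 48.4 to 52.2. It was also low in Pcdhac2, at 1.09 CPM against 4.33 to 4.84, and in Pcdhgc5, at 3.28 against 10.0 to 10.7. The labelled control animal with the highest number was high in Pcdhgc4, at 8.51 CPM against 1.84 to 2.38 in the other 3. A difference by library number was not tested. The labelled control animals had 5.28 to 7.87 CPM of Pcdhgc5 and 1.42 to 3.795 of Pcdhac2. The overlap between the labels in these members thus rests on that labelled KO animal. The gamma sum, at 45.2 to 65.8 CPM in labelled control animals, overlaps without it too.

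The effect of the KO differed between experiments for 8 members by the edgeR interaction term, 6 of them by labels that Trim28 goes against. Between Emx1-Cre cortex and Trim28-flox nuclei, by the labels as given, the difference in log2 fold change was 4.28 for Pcdha1, 2.93 for Pcdhb6, 2.65 for Pcdhb8, 1.71 for Pcdhb18, 1.596 for Pcdhb17 and 1.36 for Pcdhb22. Of these, Pcdha1 did not pass the filter on low counts in the Trim28-flox nuclei alone. Its call leans on the cortex KO animals, in which it is high, and is not taken as support. With the sign of the Trim28-flox effect turned, since Trim28 goes against the labels in those nuclei, 0 of these 6 members passed the test by edgeR, with differences of 0.697 to 2.77 in the same direction. Between Emx1-Cre cortex and NPCs it was -2.32 for Pcdhga9 and -2.24 for Pcdhga12. Between excitatory and inhibitory neuron-like nuclei it was 3.74 for Pcdha1.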

How the results depend on the processing

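In NPCs the number of members called higher was 1 in the first fit, 11 with the replicate block, 10 with DESeq2, 2 without a filter on low counts, 2 with the TEtranscripts counts and 0 to 5 with a library left out (5 without the g3 culture with the lower number), and the number called lower was 0 in the first fit, 1 with the block, 1 with DESeq2 and 0 to 1 with a library left out. Trim28 in NPCs had a log2 fold change of -1.997 to -1.62 with a library left out. In Emx1-Cre cortex DESeq2, RLE and upper-quartile factors called the same 22 members; without a filter 30 were called, 4 of them lower, and the TEtranscripts counts called 19, of which 18 were shared and 1 was lower; Pcdha2, Pcdhgb1, Pcdhga4 and Pcdhgb2 were not called. With an animal left out, 13 to 23 were called higher and 0 to 3 lower. Shares of all genes called are given for the first fits and the NPC block only. Counts of members under the other settings thus cannot be set against a background. The ratio of the gamma sum in cortex was 1.05 with plain library sizes, and that of the alpha sum in Cas9-GFP nuclei was 1.12 with the TEtranscripts counts against 0.977. DESeq2 called 2 members higher for cortex minus NPCs, where edgeR called 0. For cortex minus Trim28-flox nuclei edgeR called 6 higher as labelled and 0 with the direction of the Trim28-flox effect turned.

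Values near 0 changed sign. The log2 fold change of Trim28 in Stop-Cas9-GFP nuclei was 5.39e-05 with DESeq2, 0.000401 with RLE and 0.023 with upper-quartile factors, and -0.10 to 0.068 with an animal left out. That of Pcdhgc4 in NPCs was 0.0016 with RLE factors, 0.017 with upper-quartile factors, 0.044 with the TEtranscripts counts and -0.053 to 0.13 with a library left out. That of Pcdhgc3 was -0.0895 with the TEtranscripts counts in Trim28-flox nuclei. With an animal left out, Pcdhgc3 was at -0.20 to 0.32 in Trim28-flox and -0.11 to 0.10 in Cas9-GFP nuclei, and Pcdhgc4 at -0.98 to 0.072 in Trim28-flox nuclei and -0.26 to 0.052 in Emx1-Cre cortex. In nuclei Pcdha1 was at 3.96 to 4.09 in the excitatory and at -0.20 to 0.88 in the inhibitory neuron-like class with an animal left out.

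Causes were not tested. The block also raised the share of all genes called in NPCs, from 0.176% to 0.565% higher and from 0.0182% to 0.261% lower. Each guide against lacZ was compared by values only. With 1 lacZ animal in the Cas9-GFP and Stop-Cas9-GFP lines, the spread of the control is assumed to be that of the KO animals. With 1 lacZ NPC culture left out, the lone control is treated in the same way.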
